A study of Mus musculus with 8 samples.

Results

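Keratins are the proteins of the intermediate filaments of epithelial cells, and this account covers the 52 keratin genes measured in the thymus of mice after spaceflight, out of 19938 genes tested. A gene was taken when its symbol in the array's annotation was Krt followed by a digit. Genes of keratin-associated proteins were left out. Each of the 52 had a single probe set (a group of short DNA probes read together as 1 value) and none had a probe set shared with another gene. They were sorted into 5 simple, 4 basal, 15 squamous and 23 hair keratins, with 5 others (Krt23, Krt80, Krt88, Krt90 and Krt222) that were put in no class.

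RNA came from thymus lobes of C57BL/6NTac mice that were 8 weeks old, with 1 Affymetrix array per mouse. The spaceflight group was 4 mice flown for 13 days on the shuttle, and the ground-control group was 4 mice of matched age and sex, kept in the same kind of enclosure module on the ground. Neither group carried a stated allele or received a stated drug. A whole lobe is mostly thymocytes, so epithelial transcripts are a minor part of the RNA, and fewer epithelial cells cannot be told apart from less keratin RNA per cell. Of 9 measured thymocyte markers all 9 lay above the median level of all genes (6.20 on the log2 scale), with mean levels over the list from 10.03 to 10.37 in the 8 arrays, as the tissue label states. Values are log2 expression, so a difference of 1 is a doubling, and brightness differs between probe sets for technical reasons, so values are compared between mice and not between genes.

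A keratin filament is built from pairs of 1 acidic (type I) and 1 basic (type II) keratin, and each kind of epithelium uses its own pairs. Simple epithelia use Krt8 with Krt18 or Krt19, and the basal layer of stratified epithelia uses Krt5 with Krt14. Keratinising upper layers change to Krt1 with Krt10, and moist linings such as that of the oesophagus to Krt4 with Krt13. In the thymus Krt8 and Krt18 mark cortical epithelium, while Krt5, Krt14 and Krt17 are markers of the medulla, which also holds cells that resemble keratinocytes. Hair keratins form the shaft and the inner sheath of the hair.

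The arrays of spaceflight replicates 1 and 3 had a narrower range of values than the remaining 6. Their interquartile range was 2.43 in both against 2.68 to 2.95. Over the 9969 genes above the median level the median difference, spaceflight minus ground control, was -0.12, against 0.07 for the genes at or below it. Without these 2 arrays the same medians were -0.01 and -0.02. Values without these arrays are given beside the class medians, the lists and the keratins described in full.

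No keratin passed the test across all genes. At a limma adjusted p under 0.05, 0 of 52 were called in either direction, where the background was 0.0802% of all genes (16 of 19938), with 0.0652% lower and 0.015% higher. At an unadjusted p under 0.05, 7 keratins had a lower mean in spaceflight, where the background was 7.38% of genes, and 1 had a higher mean, where the background was 3.43%. The 7 were Krt5, Krt17, Krt14, Krt19, Krt8, Krt18 and Krt1, and the 1 was the hair keratin Krt86. The median difference was -0.03 over the 52 keratins and -0.02 over all genes. Among the 13 keratins above the median level the median was -0.46, with 6 of the 13 lower at an unadjusted p under 0.05, where the background for genes above the median was 12.4%. For the 39 keratins at or below the median it was 0.01. Without spaceflight replicates 1 and 3 these medians were -0.15 for the 13 and -0.08 for the 39.

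**Figure D1:**
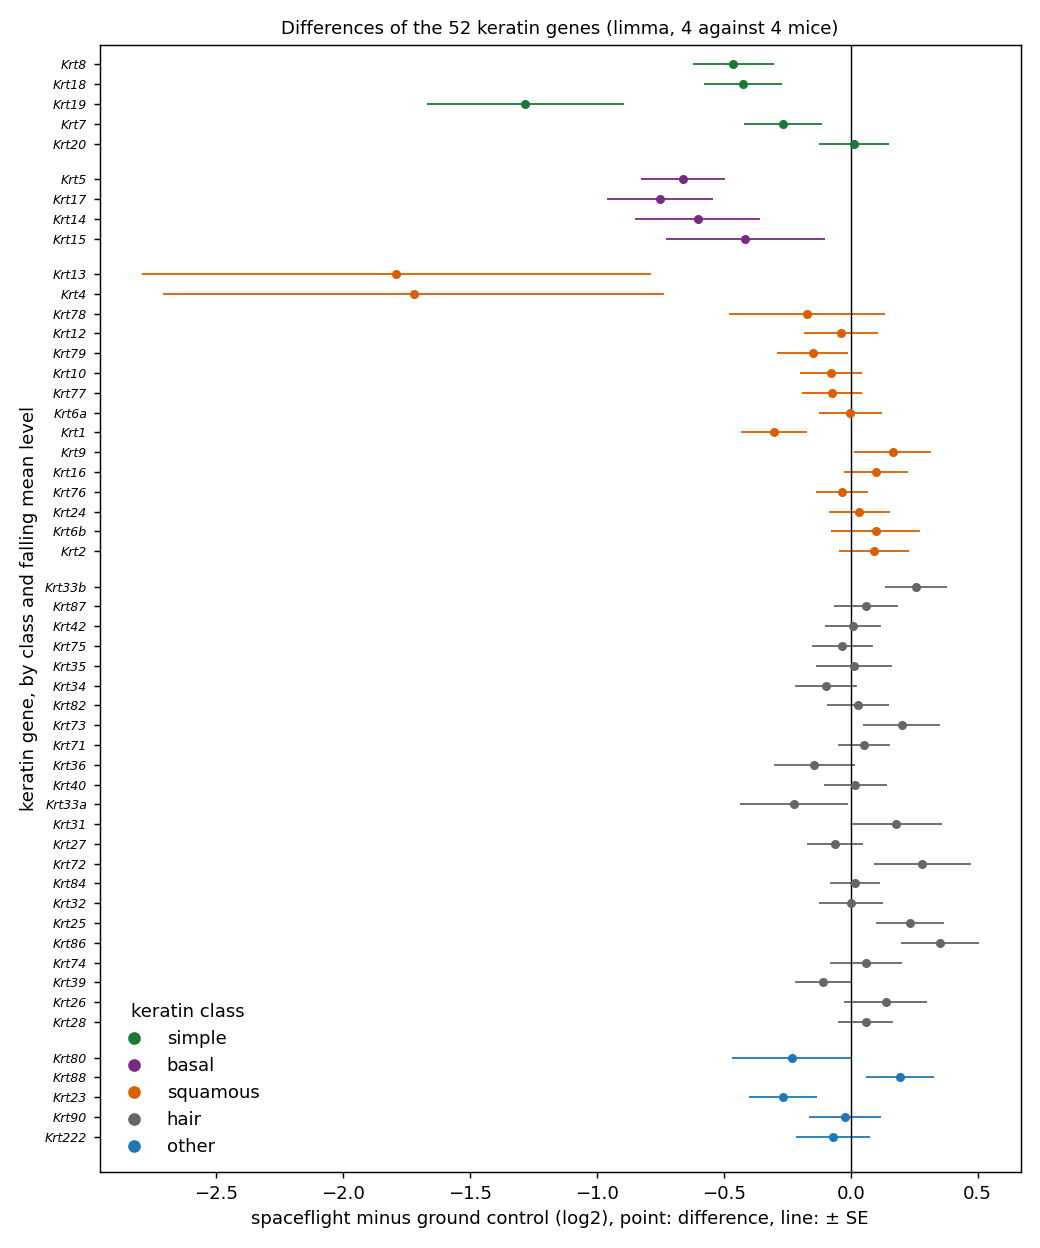
Difference in expression (log2, spaceflight minus ground control) of each of the 52 keratin genes, as point and SE from limma, by class and by falling mean level within a class. The 4 basal keratins and 4 of the 5 simple ones lie below 0, Krt13 and Krt4 lie lowest with the widest errors, and hair keratins lie on both sides of 0.

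The promoter sequences of 2 known partners, Krt8 and Krt18, are shown with those of Krt5, a basal keratin, and Krt13, a squamous keratin, because the results turn on these genes. They come from RefSeq (GRCm38.p6), through the table used here, in which 36 of the 52 members were matched, and run from 250 bases before the transcription start to 50 after it. Krt8 (chr15:102004293-102004592, minus strand) and Krt18 (chr15:102027966-102028265, plus strand) are direct neighbours on the chromosome, as are Krt13, Krt15 and Krt19. The Krt5 window is chr15:101712856-101713155 and the Krt13 window, at the upstream of 2 listed starts, is chr11:100121517-100121816, both on the minus strand. Capitals mark ATAAANG, a form of the TATA box, where it began 40 to 20 bases before the start on the strand of the gene, and TGANTCA, the site of AP-1 factors, anywhere on either strand.
Krt8: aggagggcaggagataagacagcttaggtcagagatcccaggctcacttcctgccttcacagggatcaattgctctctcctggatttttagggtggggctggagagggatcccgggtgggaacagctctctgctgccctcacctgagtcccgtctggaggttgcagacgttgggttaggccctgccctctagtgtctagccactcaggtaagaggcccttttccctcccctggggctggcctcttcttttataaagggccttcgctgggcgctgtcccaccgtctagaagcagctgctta
Krt18: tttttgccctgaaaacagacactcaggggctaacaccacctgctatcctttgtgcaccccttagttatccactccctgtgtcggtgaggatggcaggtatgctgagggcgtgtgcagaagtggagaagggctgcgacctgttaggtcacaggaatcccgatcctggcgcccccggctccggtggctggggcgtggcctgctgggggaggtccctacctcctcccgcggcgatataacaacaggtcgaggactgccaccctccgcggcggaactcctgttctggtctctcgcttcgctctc
Krt5: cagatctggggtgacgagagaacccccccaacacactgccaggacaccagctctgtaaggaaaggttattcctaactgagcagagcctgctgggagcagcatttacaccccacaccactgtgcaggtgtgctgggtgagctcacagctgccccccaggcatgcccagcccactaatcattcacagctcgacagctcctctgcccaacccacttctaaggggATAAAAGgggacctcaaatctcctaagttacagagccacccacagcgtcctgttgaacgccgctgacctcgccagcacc
Krt13: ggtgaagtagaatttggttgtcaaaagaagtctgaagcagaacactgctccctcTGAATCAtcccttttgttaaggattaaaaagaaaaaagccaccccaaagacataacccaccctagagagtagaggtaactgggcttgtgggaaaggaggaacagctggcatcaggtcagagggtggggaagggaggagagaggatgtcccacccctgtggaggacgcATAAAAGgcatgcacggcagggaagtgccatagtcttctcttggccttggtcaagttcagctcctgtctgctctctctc
Both Krt5 and Krt13 had the first motif, beginning 29 bases before the start, and Krt13 also had the second. The letters of the first motif also occur in the Krt8 window, at the listed start itself, outside the searched stretch and so unmarked. The first was found in 16 of 37 keratin promoters (43.2%) and in 1.54% of all 32851 promoters of this length, and the second in 2 of 37 (both starts of Krt13) and in 7.81% of all. The motifs were picked after the sequences had been seen, and a match describes letters, not a bound site.

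Simple keratins had lower means after flight in 4 of 5 genes, with 0 called and a median difference of -0.42, which was -0.34 without spaceflight replicate 1 and -0.14 without replicates 1 and 3. Krt8, the most widely used type II keratin of simple epithelia, read 10.01, 10.18, 9.75 and 10.54 in spaceflight replicates 1 to 4 and 10.69, 10.55, 10.71 and 10.38 in ground-control replicates 1 to 4. Its 4 ground-control values lay within 0.32 of each other, and only spaceflight replicate 4 overlapped them. The difference was -0.46 ± 0.16 (± SE, limma adjusted p = 0.364). Krt18, its type I partner, read 8.98, 9.52, 8.92 and 9.51 in spaceflight replicates 1 to 4 and 9.57, 9.58, 9.70 and 9.77 in ground-control replicates 1 to 4. The groups did not overlap, although spaceflight replicates 2 and 4 lay just under the lowest control, and the difference was -0.42 ± 0.15 (adjusted p = 0.39). Without spaceflight replicates 1 and 3 the differences were -0.22 for Krt8 and -0.14 for Krt18.

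Krt19, a small type I keratin that lacks most of the tail domain, had the largest difference among simple keratins. It read 5.87, 7.48, 7.30 and 7.88 in spaceflight replicates 1 to 4 and 7.95, 8.31, 9.29 and 8.11 in ground-control replicates 1 to 4. Spaceflight replicate 1 was far below the rest and ground-control replicate 3 far above, while the other 6 mice lay between 7.30 and 8.31. The groups did not overlap, with means of 8.41 ± 0.60 in ground control and 7.13 ± 0.88 in spaceflight (± SD), a difference of -1.28 ± 0.39 or 2.43-fold (adjusted p = 0.315). It was -0.86 without spaceflight replicate 1 and -0.73 without replicates 1 and 3. Over all genes its spread within groups ranked 79th of 19938. Krt7, a type II keratin of ducts and glands, had a difference of -0.27 ± 0.15 with overlapping groups (adjusted p = 0.51), which was -0.15 without spaceflight replicate 1 and -0.05 without replicates 1 and 3. Krt20, known from gut lining and urothelium, lay between 4.41 and 4.97 in the 8 mice, below the median level, and its difference was 0.01 ± 0.14, or 0.14 without those 2 arrays.

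All 4 basal keratins had lower means after flight, with a median difference of -0.63, and 0 were called. The median was -0.49 without spaceflight replicate 1 and -0.27 without replicates 1 and 3. Krt5, the type II keratin of basal cells, read 8.21, 8.75, 8.14 and 8.66 in spaceflight replicates 1 to 4 and 9.03, 9.09, 9.43 and 8.87 in ground-control replicates 1 to 4. Every flown mouse was below every control mouse, and the difference was -0.66 ± 0.17 or 1.58-fold (adjusted p = 0.225, the smallest among the 52 keratins). Without spaceflight replicates 1 and 3 it was -0.40, and the remaining 2 flown mice were still below the 4 controls. Krt17, a type I keratin that is induced in stressed or wounded epithelium, read 7.65, 8.01, 7.50 and 8.57 in spaceflight replicates 1 to 4 and 8.59, 8.43, 8.93 and 8.78 in ground-control replicates 1 to 4. Spaceflight replicate 4 lay within the control range and the other 3 flown mice below it, with a difference of -0.75 ± 0.21 (adjusted p = 0.279) that was -0.39 without replicates 1 and 3.

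Krt14, the main partner of Krt5, read 6.71, 7.49, 7.08 and 8.11 in spaceflight replicates 1 to 4 and 7.92, 7.70, 8.26 and 7.92 in ground-control replicates 1 to 4. Spaceflight replicate 4 was above 3 of the 4 controls, and replicate 1 was the lowest mouse. Its difference of -0.60 ± 0.25 (adjusted p = 0.425) was -0.39 without replicate 1 and -0.15 without replicates 1 and 3. Krt15, a type I keratin of basal cells and of the hair follicle bulge, read 5.47, 7.05, 7.15 and 6.94 in spaceflight replicates 1 to 4 and 7.13, 7.00, 7.41 and 6.73 in ground-control replicates 1 to 4. A single mouse, spaceflight replicate 1, was low, and the other 3 flown mice lay within the control range. The difference of -0.42 ± 0.31 (adjusted p = 0.59) was -0.02 without it and -0.07 without replicates 1 and 3.

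**Figure D2:**
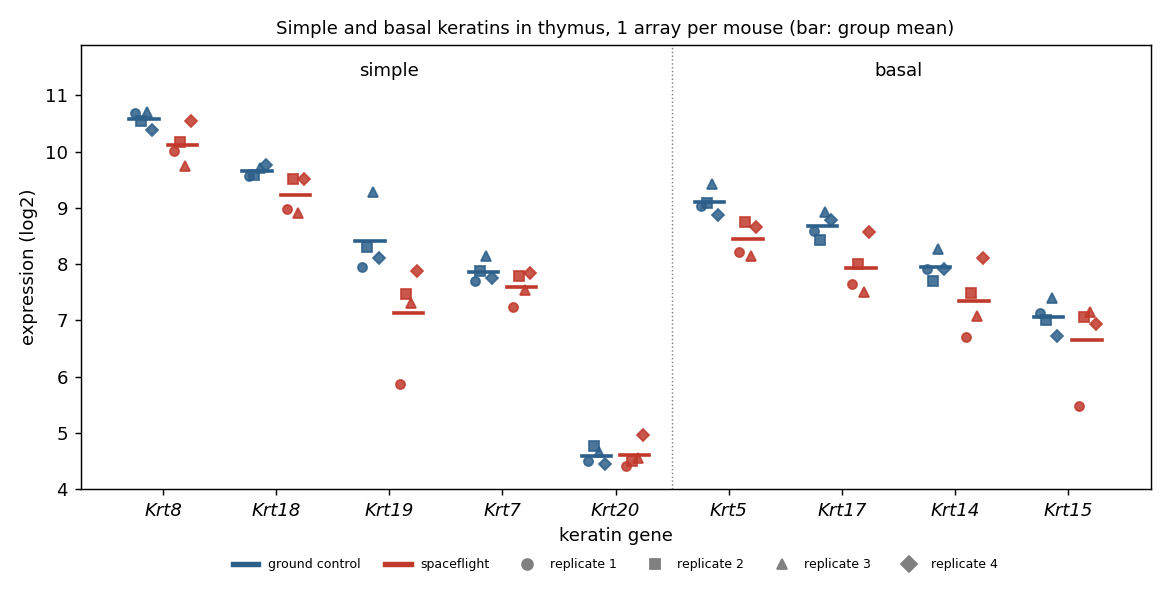
Expression (log2) of the simple and basal keratins in each mouse, ground control in blue and spaceflight in red, with 1 symbol per replicate number and a bar at the group mean. Krt18, Krt19 and Krt5 show no overlap between groups, spaceflight replicate 1 is the lowest mouse for Krt19, Krt14 and Krt15, and spaceflight replicate 4 lies among the controls for Krt8, Krt17 and Krt14.

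Groups did not overlap, with spaceflight lower, for 3 of the 52 keratins (Krt5, Krt18 and Krt19), where the background was 4.28% of all genes. All 3 are among the 13 keratins above the median level, where the background was 7.01%. No keratin was higher in every flown mouse than in every control, where the background was 1.73%.

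Among squamous keratins, 2 varied between mice more than nearly any other gene on the array. Krt13, the type I keratin of moist stratified linings, read 5.52, 11.38, 11.34 and 9.24 in spaceflight replicates 1 to 4 and 11.23, 11.03, 11.91 and 10.47 in ground-control replicates 1 to 4. Spaceflight replicate 1 was far below every other mouse, spaceflight replicate 4 was also below the controls, and spaceflight replicates 2 and 3 were above 3 of the 4 controls. Krt4, its type II partner, read 4.61, 10.35, 10.21 and 7.93 in spaceflight replicates 1 to 4 and 10.02, 9.92, 10.86 and 9.18 in ground-control replicates 1 to 4. The same 2 flown mice were low, in the same order. From the lowest to the highest mouse the range was 83.8-fold for Krt13 and 76.4-fold for Krt4, and 58.2-fold and 53.7-fold among flown mice alone, against 2.70-fold and 3.21-fold among controls.

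The group means of Krt13 were 11.16 ± 0.59 in ground control and 9.37 ± 2.75 in spaceflight (± SD), and the difference was -1.79 ± 1.00 (adjusted p = 0.505). For Krt4 they were 9.99 ± 0.69 in ground control and 8.27 ± 2.68 in spaceflight, with a difference of -1.72 ± 0.99 (adjusted p = 0.511). The groups overlapped for both, and neither difference was larger than the spread between mice. Without spaceflight replicate 1 the differences were -0.51 and -0.50, and without replicates 1 and 3 they were -0.85 and -0.85. In spread within groups Krt13 ranked 5th and Krt4 6th of 19938 genes, with pooled SDs of 1.99 and 1.96 against a median of 0.19 over all genes.

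**Figure D3:**
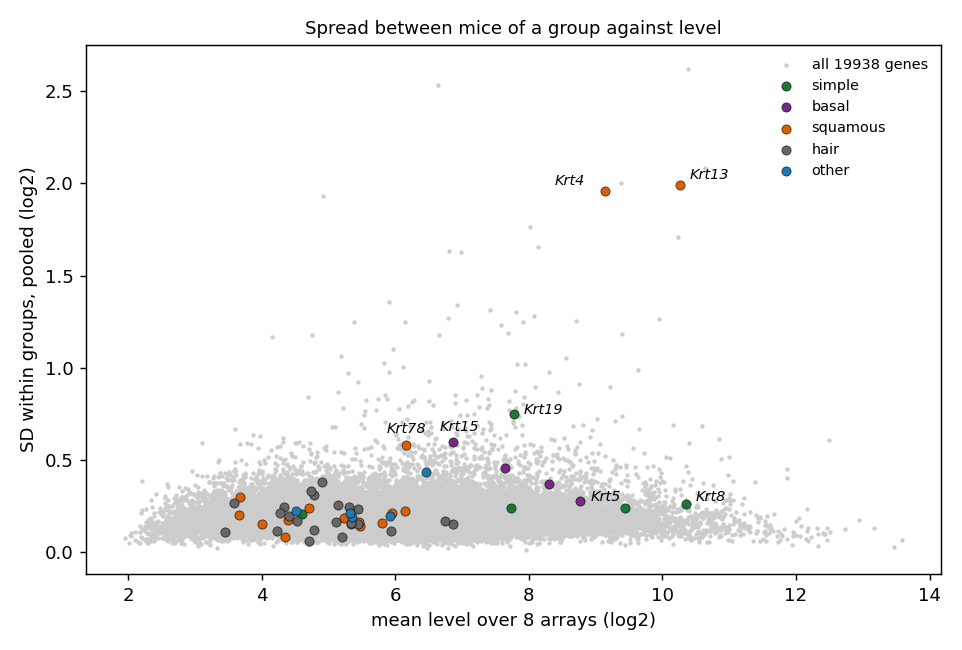
SD within groups (pooled over both groups, log2) against mean level over the 8 arrays (log2), with all 19938 genes in grey and the 52 keratins coloured by class. Krt13 and Krt4 lie near the top at 1.99 and 1.96, Krt19 is next among keratins at 0.75, and the hair keratins lie between 0.06 and 0.38.

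The other 13 squamous keratins all lay at or below the median level, with a median difference of -0.03 and 0 called. Krt78, a type II keratin of stratified epithelium, read 5.43, 6.75, 6.64 and 5.50 in spaceflight replicates 1 to 4 and 6.31, 6.06, 6.81 and 5.84 in ground-control replicates 1 to 4. Spaceflight replicates 1 and 4 were again the lowest mice, and the groups overlapped (difference -0.17 ± 0.31). Krt1, the type II keratin of the cornifying epidermis, had a difference of -0.30 ± 0.13 with overlapping groups (adjusted p = 0.447), while its partner Krt10 had -0.08 ± 0.12. Krt12, the keratin of the cornea, had -0.04 ± 0.15, and Krt79, a type II keratin of the hair canal, had -0.15 ± 0.14. Differences of the 13 ran from -0.30 (Krt1) to 0.17 (Krt9). Their median was -0.08 without spaceflight replicates 1 and 3, where the differences were -0.13 for Krt78, -0.18 for Krt1, 0.06 for Krt10, -0.27 for Krt12 and -0.31 for Krt79. The sign of Krt78 turned without spaceflight replicate 1 (0.04), without spaceflight replicate 4 (0.02) and without ground-control replicate 3 (0.01), each left out singly.

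Known partners were compared over the 8 arrays for 7 pairs fixed by their biology. Krt4 and Krt13 had a Pearson r of 0.998 (exact permutation p = 2.48e-05, the smallest possible, adjusted over the 7 pairs p = 0.000174) and a Spearman rho of 1.0 (exact permutation p = 4.96e-05, adjusted p = 0.000347). Leaving out spaceflight replicates 1 and 4, the 2 mice farthest from the median of Krt4, gave r = 0.995 (exact permutation p = 0.00139), and r was 0.998 after the group means were subtracted. Krt8 with Krt18 had r = 0.845 (exact permutation p = 0.0128, adjusted p = 0.0224) and rho = 0.69 (exact permutation p = 0.0694, adjusted p = 0.116). After the group means were subtracted r was 0.682 (permutation p = 0.0598, adjusted p = 0.105). The permutations ran over all 8 arrays without regard to group, so p-values after this subtraction are approximate. Values of r over the 8 arrays include any difference between the groups. Without spaceflight replicates 1 and 3 r was 0.155 (exact permutation p = 0.769), so the relation over 8 arrays was not seen without those mice. These are the 2 arrays with the narrower range of values, and the part of that in the relation was not tested.

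For Krt5 with Krt17 r was 0.881 (exact permutation p = 0.00434, adjusted p = 0.0152) and rho 0.786 (p = 0.0279, adjusted p = 0.0652, both exact). For Krt5 with Krt14 r was 0.835 (exact permutation p = 0.0107, adjusted p = 0.0224) and rho 0.667 (p = 0.0831, adjusted p = 0.116, both exact). Krt8 with Krt19 had r = 0.736 (exact permutation p = 0.0319, adjusted p = 0.0447) and rho = 0.857 (p = 0.0107, adjusted p = 0.0375, both exact). Without the 2 farthest arrays these 3 had r of 0.746, 0.74 and 0.674 with exact permutation p-values of 0.0875, 0.111 and 0.144. For both Krt5 pairs the arrays left out were spaceflight replicate 3 and ground-control replicate 3. For Krt8 with Krt19 they were spaceflight replicates 1 and 3. The Krt5 pairs were not compared without spaceflight replicates 1 and 3. After subtraction of group means the 3 pairs had r of 0.696, 0.737 and 0.466, with adjusted approximate permutation p-values of 0.105, 0.105 and 0.278. Krt1 with Krt10 (r = 0.459, rho = 0.548) and Krt6a with Krt16 (r = -0.514, rho = -0.5) did not pass, with exact permutation p-values for r of 0.232 and 0.192, and for rho of 0.171 and 0.216. After adjustment these were 0.232 and 0.224 for r, and 0.199 and 0.216 for rho.

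Of the 23 hair keratins, 21 lay at or below the median level. Their median difference was 0.03, 17 had a higher and 6 a lower mean in spaceflight, and 0 were called. Krt86, a hair shaft keratin, read 4.45, 4.46, 4.91 and 4.23 in spaceflight replicates 1 to 4 and 4.27, 4.37, 4.00 and 4.01 in ground-control replicates 1 to 4. Spaceflight replicate 3 was the highest mouse and the groups overlapped (difference 0.35 ± 0.15, adjusted p = 0.447). Krt33b, another shaft keratin, had a difference of 0.26 ± 0.12 (adjusted p = 0.463), and Krt72, of the inner root sheath, had 0.28 ± 0.19. Without spaceflight replicates 1 and 3 the class median was -0.07 and these 3 differences were 0.18, 0.17 and -0.02. Spaceflight replicate 1 was the highest of the 8 arrays for 8 of the 23, as it was for 30.1% of all genes at or below the median level. Other hair keratins named by level or by difference were Krt87 (0.06), Krt42 (0.01), Krt75 (-0.03), Krt35 (0.01) and Krt34 (-0.10). Without replicates 1 and 3 these 5 were -0.07, -0.11, -0.18, -0.26 and -0.22.

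The 5 keratins in no class had differences from -0.27 (Krt23, a type I keratin of glandular epithelium) to 0.19 (Krt88). Krt80, a type II keratin of many epithelia, had -0.23 ± 0.24, with its highest value, 7.26, in ground-control replicate 3. Krt222 had -0.07 and Krt90 -0.02. Groups overlapped for all 5. Without spaceflight replicates 1 and 3 the differences were -0.12 for Krt23, -0.11 for Krt80, -0.23 for Krt222, -0.17 for Krt90 and -0.001 for Krt88.

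Values differed more among the flown arrays than among the control arrays, for keratins as for all genes. The SD was larger in spaceflight for 41 of the 52 keratins, beside 74.6% of all genes, and for 35 without spaceflight replicate 1, beside 67.1% of all genes. By class it was larger for 5 of 5 simple, 4 of 4 basal, 11 of 15 squamous and 17 of 23 hair keratins. Without spaceflight replicate 1 these counts were 3, 3, 11 and 16. The background was 81.7% of genes above the median level, where 4 of the 5 simple and all 4 basal keratins lay. Among genes at or below the median level it was 67.4%. Spaceflight replicates 1 and 3 are the arrays with the narrower range of values. The part of that in the larger SD was not tested, and the SD was not compared without both arrays. Among the 13 keratins above the median level, spaceflight replicate 1 was the lowest of the 8 arrays for 6, beside 36.6% of all genes above the median, and ground-control replicate 3 was the highest for 10, beside 28% of those genes.

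Genes that act with keratin filaments were read from lists, and 0 members of any list here passed over all genes. Desmosomes, the junctions on which the filaments end, had 13 of 15 genes measured and a median difference of -0.18. At an unadjusted p under 0.05, 1 gene was lower, beside 7.38% of all genes and 12.4% of genes above the median level. It was Pkp1, a plaque protein (-0.38 ± 0.15, adjusted p = 0.414). Dsg2 (-0.28) and Dsc2 (-0.37), both desmosomal cadherins, followed. Hemidesmosome and plakin genes, which tie basal cells to the basement membrane or crosslink filaments, had 11 of 12 measured and a median of -0.12. Cd151, a partner of the laminin receptor integrins, had -0.51 ± 0.19 (adjusted p = 0.393). Eppk1, which bundles keratin filaments, was the 1 gene of these lists with a higher value in every flown mouse, beside 1.73% of all genes. Its difference was 0.27 ± 0.11 (adjusted p = 0.412), and Lamb3, a chain of epithelial laminin, had -0.34.

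Epithelial regulators and adhesion genes (16 of 17 measured) had a median of -0.10. Sfn, an epithelial 14-3-3 protein that binds keratins, read 7.61, 7.64, 7.35 and 7.77 in spaceflight replicates 1 to 4 and 8.23, 7.98, 8.60 and 8.01 in ground-control replicates 1 to 4. The groups did not overlap, and the difference was -0.62 ± 0.15 (adjusted p = 0.203) and -0.50 without spaceflight replicates 1 and 3. Klf4 and the cadherin Cdh1 had -0.33 and -0.36. Thymic epithelial genes other than keratins (21 of 23 measured) had a median of -0.26. At an unadjusted p under 0.05, 7 were lower, beside 7.38% of all genes and 12.4% of genes above the median level, where 17 of the 21 lay. Groups did not overlap, with spaceflight lower, for 6 of the 21, for 1 of the 16 regulators (Sfn) and for 0 desmosome, hemidesmosome and plakin genes. The background for this was 4.28% of all genes and 7.01% of genes above the median level. Tbata (-0.72 ± 0.13, adjusted p = 0.0805), the transcription factor Foxn1 (-0.63 ± 0.12, adjusted p = 0.0888) and the cortical proteasome subunit Psmb11 (-0.79 ± 0.16, adjusted p = 0.114) had the smallest p. Without spaceflight replicates 1 and 3 the medians were -0.05 for desmosomes, -0.03 for hemidesmosomes and plakins, -0.02 for the regulators and -0.11 for thymic epithelial genes.

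Genes of the cornified envelope, the protein shell of terminally differentiated squamous cells, showed the order of Krt13 and Krt4 over the flown mice in part of the list. In 13 of the 26 measured genes (of 28 listed) spaceflight replicate 1 was the lowest and replicate 4 the next lowest flown mouse, as in 5.58% of all genes, and 11 of the 26 were among the 100 genes of largest spread. The median difference was -0.19 (-0.06 without spaceflight replicate 1 and -0.24 without replicates 1 and 3), and 0 were lower at an unadjusted p under 0.05. Sprr3, an envelope protein of moist linings, read 5.01, 10.71, 10.67 and 7.90 in spaceflight replicates 1 to 4 and 10.37, 10.21, 11.06 and 9.14 in ground-control replicates 1 to 4. Krtdap, a protein of differentiating keratinocytes, read 4.23, 9.07, 8.96 and 6.92 in spaceflight replicates 1 to 4 and 9.09, 8.84, 9.70 and 8.33 in ground-control replicates 1 to 4. Both were low in spaceflight replicates 1 and 4 and near the controls in replicates 2 and 3. Dmkn, an epidermal secreted protein, had -0.64 ± 0.42.

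Transcripts of other tissues moved with some of these values. Airway epithelium genes (12 of 12 measured) had mean levels over the list of 5.54 to 8.48 in the flown mice and 7.76 to 9.56 in controls, lowest in spaceflight replicate 1 and highest in ground-control replicate 3. The club cell gene Scgb1a1 read 3.78, 10.65, 11.51 and 10.87 in spaceflight replicates 1 to 4 and 10.94, 11.71, 12.56 and 11.06 in ground-control replicates 1 to 4. Replicate 4, low for Krt13, was not low for this gene, and 0 of the 12 airway genes had the order of Krt13 in the flown mice. Bpifb1 (-1.64) and Reg3g (-1.14) had the smallest p of that list.

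Muscle genes (10 of 10 measured) had mean levels of 5.67 to 7.53 in spaceflight and 6.91 to 7.66 in controls, and 7 of the 10 had the order of Krt13, with Myl1 (-0.51), Ckm (-0.68) and Acta1 (-0.90) the members of smallest p. Fat cell genes (9 of 10) had 7.87 to 8.84 and 8.81 to 9.30, with Retn (-0.83), Lep (-0.75) and Pparg (-0.60). Mesothelium genes, a list that shares Krt8, Krt18 and Krt19 with the simple class, had 6.97 to 7.72 in spaceflight and 7.74 to 8.30 in controls. Its members Lrrn4 (-0.68 ± 0.18, adjusted p = 0.255) and Upk3b (-0.58 ± 0.18, adjusted p = 0.318) are not keratins. Without spaceflight replicate 1 the list medians moved from -0.81 to -0.35 for airway, from -0.40 to -0.08 for muscle, from -0.60 to -0.18 for fat cell and from -0.44 to -0.38 for mesothelium genes. Without replicates 1 and 3 they were -0.38, -0.27, -0.20 and -0.18. The part of these tissues in the keratin values was not tested.

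Lists with levels near the floor or without a shift were skin appendage genes (11 of 11 measured, median 0.12, but -0.02 without spaceflight replicate 1, the highest array for 6 of the 11, and -0.04 without replicates 1 and 3; Krtap6-2 0.28, Krtap4-7 0.29, Hoxc13 0.21), tuft cell genes (median -0.004; Dclk1 -0.21, Alox5ap -0.10, Trpm5 0.05) and thyroid and parathyroid genes. The last had 6 of 8 measured, all 6 at or below the median level, a median of -0.07, and Tshr at -0.95 ± 0.27 (adjusted p = 0.283), beside Slc5a5 (0.17) and Nkx2-1 (-0.16). The thymocyte list had a median of -0.16, with Rag2 at -0.25, Cd8a at -0.22 and Thy1 at -0.22. Without spaceflight replicates 1 and 3 the medians were -0.02 for tuft cell, -0.08 for thyroid and parathyroid and -0.06 for thymocyte genes.

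**Figure D4:**
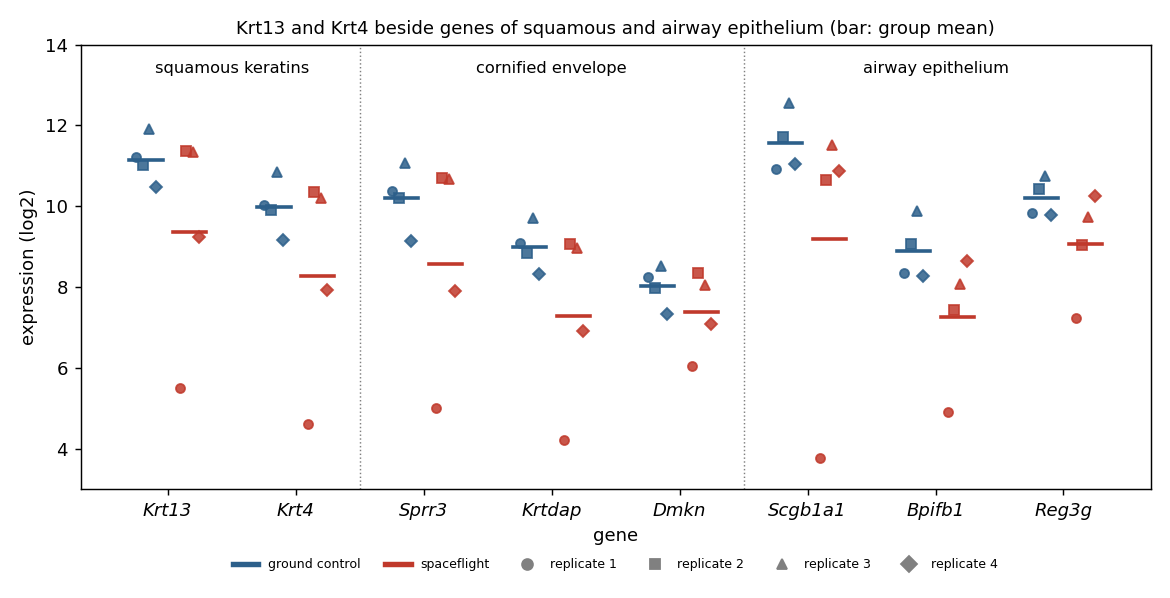
Expression (log2) of Krt13, Krt4, cornified envelope genes and airway genes in each mouse, ground control in blue and spaceflight in red, with 1 symbol per replicate number and a bar at the group mean. Spaceflight replicate 1 (circle) is the lowest mouse for all 8 genes, while spaceflight replicate 4 (diamond) is low for the keratins and envelope genes and among the other mice for the airway genes.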

How the data were processed

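Per the labels' protocols, thymus RNA was extracted with Trizol and made into biotin-labelled cRNA for Affymetrix arrays. The deposited values are log2 expression per probe set, and the submitters' processing notes name RMA and limma; no version or filter is stated in the sources used here. The lowest unbroken run of identifiers (6614 of 35557 probe sets, none in the annotation) was taken as controls and left out. Of 28943 others, 21789 had 1 gene, 1621 several and 5533 none. Symbols were updated through RefSeq (21698 matched), and the probe set of highest mean stood for a gene, giving 19938 genes.

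Groups were compared with limma 3.58.1 in R 4.3.3 (lmFit, eBayes, two-sided, no block), with Benjamini-Hochberg adjustment over all genes and a threshold of 0.05. On simulated data for this comparison (19938 genes) the fit recovered 26% of genes changed by 0.5 (log2), 80% at 1 and 98% at 1.5 and at 2. The simulated noise was independent between genes and arrays, without the narrower range of 2 arrays, and 156 genes were called against 16 in the data. These shares belong to that setting and may be too high for these arrays and for genes of large spread. The members and lists were chosen with earlier results of these data known. Named were all simple and basal keratins, keratins at an unadjusted p under 0.05, the 6 of highest mean and 3 of largest difference of each other class, and the 3 genes of smallest p of each other list. Krt9, Krt33a, Krt36 and the surfactant gene Sftpc fell outside this rule and were named after their values were seen. Krt6a and Krt16 also fell outside it and were named as a pair. Sequence shared between close keratin paralogs (Krt6a and Krt6b, Krt33a and Krt33b, Krt14, Krt16 and Krt17) leaves their values uncertain. The labels name no batch, p-values measure the spread between these mice, and the number of arrays limits the precision.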

Additional observations from a re-analysis of the deposited data

Results flagged for a closer look

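In each group of 4, the highest or lowest mouse was marked where its gap to the nearest other mouse, as a share of the group's range, was above Dixon's 95% critical value. Of 140 groups examined (the named keratins and list genes, each in both groups), 8 were marked, or 5.71%, and chance marks about 1 in 20 groups.

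Among keratins, Krt15 was low in spaceflight replicate 1 (5.47, nearest other 6.94), Krt90 was high in spaceflight replicate 1 (5.70, nearest 5.22) and Krt222 was high in spaceflight replicate 3 (4.91, nearest 4.38). Among list genes, spaceflight replicate 1 was low for Scgb1a1 (3.78, nearest 10.65), the muscle filament gene Des (5.31, nearest 7.13) and Klf4 (6.23, nearest 6.62). Ground-control replicate 3 was high for Cdh1 (8.48, nearest 7.89) and Nkx2-1 (5.39, nearest 5.01).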

How the results depend on the processing

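None of the 18 alternatives gave a keratin at an adjusted p under 0.05. Calls of partner genes were counted only with arrays centred on 75th percentiles, with the replicate block, without single mice and without spaceflight replicates 1 and 3. In these 0 were called. Under the other alternatives, among them genes above the median level only and eBayes with trend and robust, calls of partner genes were not counted. The lowest adjusted p of a named keratin was 0.0628 (Krt17, without spaceflight replicate 4). The count of keratins lower at an unadjusted p under 0.05 was 7, and from 5 to 10 without single mice. Over all 19938 genes it was 1472, and from 891 to 2207 without single mice. Among keratins it was 6 with arrays centred on their 75th percentiles, 8 with the replicate block and 6 without spaceflight replicates 1 and 3. Over all genes these settings gave 895, 1443 and 792. The 6 keratins without spaceflight replicates 1 and 3 were Krt5, Krt19, Krt12, Krt35, Krt36 and Krt33a, so only Krt5 and Krt19 remained of the 7. The replicate block left 0 keratins and 0 partner genes called. The labels do not say that replicate numbers pair the mice. Deviations of same-numbered mice correlated at 0.243, -0.296, -0.098 and 0.069. With controls of other numbers the highest correlations were 0.271, 0.384, 0.328 and 0.32. Such values cannot show whether mice were paired. The count of keratins higher at an unadjusted p under 0.05 was 1, and 2 with arrays centred on 75th percentiles. It was 0 with array weights, 0 among genes above the median level only, 0 without spaceflight replicates 1 and 3, and 0 to 2 without single mice. Over all genes those counts were 683, 1208, 504, 131 (of 9969), 695, and 352 to 1301 without single mice. Of the 7 pairs, 5 passed with all arrays, 1 (Krt4 with Krt13) after subtraction of group means and 1 (the same pair) without the 2 farthest arrays. Of 29 named keratins 16 kept the sign of their difference under every alternative and 13 did not. Over all genes, 683 were higher and 1472 lower at an unadjusted p under 0.05, and 1208 and 895 with arrays centred on 75th percentiles, where the median difference of all genes was 0.06 in place of -0.02. The median of squamous keratins changed from -0.04 to 0.04 when arrays were centred on 75th percentiles, and that of hair keratins from 0.03 to -0.04 with repeated quantile normalization, -0.01 without spaceflight replicate 1 and -0.07 without replicates 1 and 3.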

Other observations

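Intermediate filament genes other than keratins (16 of 16 measured) had a median difference of -0.07, which was -0.09 without spaceflight replicates 1 and 3. Among them 0 were called and 2 were lower at an unadjusted p under 0.05, beside 7.38% of all genes. Vim, the filament of mesenchymal cells, had -0.31 ± 0.14 (adjusted p = 0.463), the nuclear lamin gene Lmna -0.46 ± 0.20 (adjusted p = 0.449) and Des, the filament of muscle, -0.92 ± 0.41 (adjusted p = 0.454). Des read 5.31, 7.27, 7.47 and 7.13 in spaceflight replicates 1 to 4 and 7.28, 7.33, 8.30 and 7.93 in ground-control replicates 1 to 4.

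Of the 30 genes with the largest spread within groups, 2 were keratins, 7 were on the cornified envelope list and 5 on the airway list, and spaceflight replicate 1 was the lowest array for 23 of the 30. Some of the others marked another mouse. The lung surfactant gene Sftpc read 5.38, 5.07, 5.77 and 8.76 in spaceflight replicates 1 to 4 and 5.88, 5.18, 11.73 and 5.32 in ground-control replicates 1 to 4, high in ground-control replicate 3 and, less so, in spaceflight replicate 4.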
